A study of Homo sapiens with 6 samples.

Results

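Epithelial adhesion and tight junction genes were examined in H1 human embryonic stem cells, an established line, after depletion of HERVH, an endogenous retrovirus family whose transcripts are abundant in such cells. The genes were CDH1, EPCAM, the claudins CLDN3, CLDN4, CLDN6, CLDN7 and CLDN10, the splicing regulators ESRP1 and ESRP2, and OCLN, 10 genes in all. Their probes were those whose gene name equals one of these symbols on a 1-colour Illumina expression array. That gave 14 of the 47230 probes, for 9 of the 10 genes. ESRP1 had no probe under that name and 1 under its older name RBM35A, and EPCAM had 2 further probes under its older name TACSTD1, so 17 probes are described.

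The study compared 3 samples transfected with pSUPER-HERVH shRNA, a plasmid expressing a short hairpin RNA against HERVH, with 3 that received pSUPER-Luciferase shRNA as control. Both groups were feeder-free H1 cells of passage 32 grown on Matrigel, were given 2 µg of plasmid and were harvested 5 days later. H1 is a single line, and the labels do not say that transfected cells were selected or that replicates were separate cultures. The p-values therefore rest on the spread between these samples, which may be technical. No gene name on the array contained HERVH, so depletion of the target itself could not be read here.

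Pluripotent stem cells grow as tightly packed epithelial colonies. E-cadherin, encoded by CDH1, joins neighbouring cells at adherens junctions, and EPCAM is a surface adhesion protein of epithelia that is abundant in these cells. Claudins and occludin are membrane-spanning proteins of tight junctions, where claudins build the strands that seal the space between cells or make it selectively permeable. ESRP1 and ESRP2 are RNA-binding proteins that direct the splicing patterns typical of epithelial cells. In an epithelial to mesenchymal transition such genes are repressed while N-cadherin (CDH2) and vimentin (VIM) are induced.

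The regions before the start sites of CLDN6, the member that rose, and of CLDN10, the claudin that fell, are shown with that of CLDN7. Among the 6 members searched, CLDN7 carried the most copies of the sequence CAGGTG. This sequence, or CACCTG on the other strand, is the core of the E-boxes recognised by repressors of the SNAI and ZEB families. Sequences are the 250 bases before a RefSeq start site in GRCh38.p14, 5′ to 3′ on the gene's strand, with capitals marking CAGGTG or CACCTG.
CLDN6, chr16:3018184-3018433, minus strand: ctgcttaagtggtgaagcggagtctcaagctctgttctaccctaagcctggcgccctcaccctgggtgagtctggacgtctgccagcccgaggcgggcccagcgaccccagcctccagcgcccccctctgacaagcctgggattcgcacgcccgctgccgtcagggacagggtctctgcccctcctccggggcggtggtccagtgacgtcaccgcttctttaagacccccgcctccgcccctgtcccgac
CLDN10, upstream start site, chr13:95433505-95433754, plus strand: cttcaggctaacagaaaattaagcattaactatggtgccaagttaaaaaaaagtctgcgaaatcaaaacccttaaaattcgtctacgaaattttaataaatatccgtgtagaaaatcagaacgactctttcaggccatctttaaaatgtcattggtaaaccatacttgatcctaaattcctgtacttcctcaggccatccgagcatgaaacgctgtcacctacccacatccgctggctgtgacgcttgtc
CLDN10, downstream start site, chr13:95552470-95552719, plus strand: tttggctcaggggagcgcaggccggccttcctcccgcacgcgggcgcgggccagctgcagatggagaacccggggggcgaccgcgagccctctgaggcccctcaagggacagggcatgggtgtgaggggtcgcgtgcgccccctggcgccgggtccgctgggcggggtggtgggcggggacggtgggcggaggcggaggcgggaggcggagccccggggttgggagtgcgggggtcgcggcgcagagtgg
CLDN7, chr17:7262479-7262728, minus strand: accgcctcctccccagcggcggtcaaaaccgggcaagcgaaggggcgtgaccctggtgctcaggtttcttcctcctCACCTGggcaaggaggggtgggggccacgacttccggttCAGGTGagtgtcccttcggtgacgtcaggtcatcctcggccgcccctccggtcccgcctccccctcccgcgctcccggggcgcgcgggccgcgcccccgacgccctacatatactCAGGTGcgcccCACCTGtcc

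Start site regions of 6 of the 10 genes were searched, with 9 regions in all. None was held for CDH1, EPCAM or ESRP2. Member regions on chromosome 8 were left out, so ESRP1 was not searched, while the share of all genes includes that chromosome. The CAGGTG core occurred in 17.5% of 35116 such regions of all genes, and in 3 of the 9 member regions. The CLDN7 region shown held 4 copies, beginning 174, 135, 20 and 9 bases before the start site, and each of the 2 OCLN regions held 1. The letters were not found in the windows of CLDN3, CLDN4, CLDN6, CLDN10 or the other CLDN7 start site. The 2 CLDN10 start sites lie 118965 bases apart and differ in base composition, with 39.6% G or C upstream and 78.0% downstream. These matches describe the letters of the windows only.

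Intensities below are the authors' processed values per sample in arbitrary units. Differences are log2 values of HERVH shRNA minus control shRNA after quantile normalization, with the standard error (SE) and the Benjamini-Hochberg adjusted p of a limma fit over all 47230 probes. The limma fit draws the variance of each probe toward a value shared over all probes. Its SE and p are therefore not based on the spread of 1 probe alone. A probe was called higher or lower at an adjusted p below 0.05. Within a group, log2 intensities correlated at 0.994 to 0.995 across probes, and between groups at 0.968 to 0.972. The difference between the groups was broad, with 12.1% of all probes called higher and 12.6% lower, 24.6% in all. As a stand-in for background, the 95th percentile of 463 olfactory receptor probes was 78.0 to 83.0 in the 6 samples. Probes with a mean above it were called more often, 26.9% of them higher and 27.3% lower.

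Of the 10 members, 1 was higher with HERVH shRNA (CLDN6), 3 were lower (EPCAM, CLDN10 and ESRP1) and 6 did not pass the test, reading each from its brightest probe. Over single probes, 1 of 17 was higher (5.88%, against 12.1% of all probes) and 5 were lower (29.4%, against 12.6%). With the 14 exactly named probes alone, 1 was higher and 3 were lower. Among the 11 member probes whose mean lay above the background stand-in, 6 were called (54.5%), against 54.2% of all such probes on the array. Within these 11 probes 1 was higher (9.09%) and 5 were lower (45.5%), and whether this split differs from that of the array was not tested. Over all 17 probes 35.3% were called, against 24.6% of the array. In deposited values the groups did not overlap for 8 of the 17 probes (47.1%), against 36.6% of all probes. These 8 were all among the 11 probes above the stand-in (72.7% of them), and the share over all probes is not matched for brightness. With 3 samples against 3, the exact two-sided permutation test of a single probe cannot go below 0.1.

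**Figure D1:**
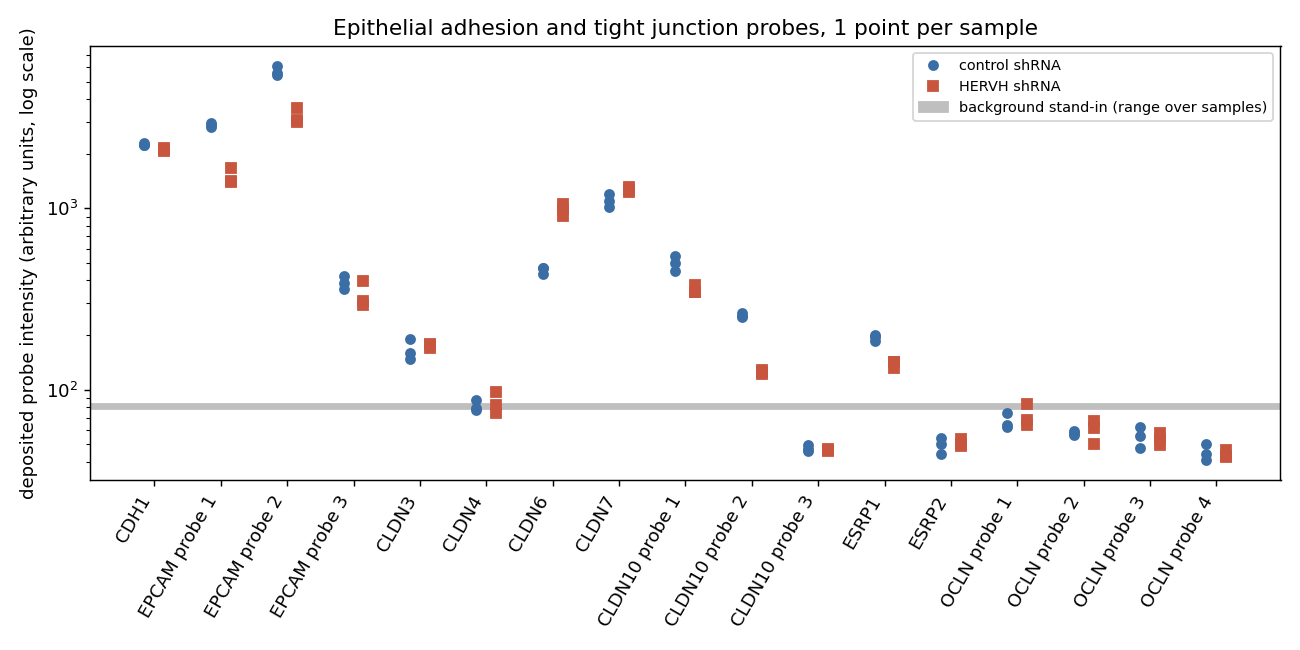
Deposited intensity (log axis, arbitrary units) of the 17 member probes in each of the 3 control shRNA samples (circles) and 3 HERVH shRNA samples (squares), with the range of the background stand-in, 78.0 to 83.0, as a grey band. CLDN6 squares lie above its circles, squares of EPCAM probes 1 and 2, CLDN10 probes 1 and 2 and ESRP1 lie below theirs, and all OCLN and ESRP2 points lie at or under the band.

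CDH1, on chromosome 16, had nearly the same signal in both groups. Its probe read 2283, 2245 and 2251 in the control samples and 2097, 2067 and 2155 with HERVH shRNA. The deposited values of the groups did not overlap, but they lay close together, and the normalized log2 difference was -0.05 (SE 0.08, n = 3 and 3, limma adjusted p = 0.736). The 95% interval of the difference ran from -0.21 to 0.11, which does not reach the differences of the 2 called EPCAM probes given next. Across 17 alternative settings the difference lay between -0.15 and -0.02, and the adjusted p between 0.216 and 0.903.

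EPCAM, on chromosome 2, fell. Probe 1 (ILMN_3249032), the only one under the current name, read 2894, 2795 and 2949 in the control samples and 1679, 1400 and 1409 with HERVH shRNA. Each HERVH shRNA sample lay far below each control sample. The log2 difference was -0.91 (SE 0.09, limma adjusted p = 3.8e-08), a level 1.87-fold higher in control cells. Probe 2 (ILMN_2160210) read 5596, 6133 and 5479 against 3577, 3016 and 3060, a log2 difference of -0.76 (SE 0.09, limma adjusted p = 4.3e-07). Both probes showed no overlap between groups. Probe 3 (ILMN_2160209) did not pass the test. It read 425, 389 and 360 against 398, 308 and 291, with overlapping groups, a log2 difference of -0.21 (SE 0.10) and a limma adjusted p of 0.162. Without HERVH shRNA replicate 1 its log2 difference was -0.34 with a limma adjusted p of 0.0121. With all samples and median centring in place of quantile normalization it was -0.29 (limma adjusted p = 0.0420). Whether probe 3 passes thus depends on that sample and on the normalization. In bulk RNA such as this, fewer cells expressing a gene and less RNA per cell cannot be told apart.

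Among the claudins, CLDN6 on chromosome 16, a claudin of early embryonic epithelia and of pluripotent cells, rose. Its probe (ILMN_1804531) read 434, 466 and 467 in the control samples and 902, 991 and 1064 with HERVH shRNA. All HERVH shRNA samples were well above all control samples. The log2 difference was 1.14 (SE 0.08, limma adjusted p = 5.7e-10), a 2.20-fold rise. The difference lay between 1.05 and 1.20 in all 17 alternatives run, and the call held in each.

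CLDN10 on chromosome 13, which forms ion-selective channels in tight junctions and is expressed from alternative promoters, fell by both probes that gave signal. Probe 2 (ILMN_1685194) read 256, 252 and 265 in control samples and 122, 124 and 128 with HERVH shRNA, a log2 difference of -1.03 (SE 0.08, limma adjusted p = 1.1e-09). Probe 1 (ILMN_1721818) read 545, 450 and 500 against 379, 346 and 347, a log2 difference of -0.44 (SE 0.08, limma adjusted p = 3.2e-04). The groups did not overlap for either probe. Their 95% intervals, -1.18 to -0.87 and -0.62 to -0.27, do not overlap, but the difference between probes was not tested. Probe 3 lay below the background stand-in in all 6 samples, at 45.6 to 49.7. Which transcript each probe reads was not established, because probe sequences were not used here.

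CLDN7, on chromosome 17, which associates with EPCAM at the cell membrane, just missed the threshold. It read 1102, 1206 and 1023 in control samples and 1305, 1234 and 1259 with HERVH shRNA. The groups did not overlap, though the highest control sample came close to the lowest HERVH shRNA sample. The log2 difference was 0.22 (SE 0.08) with a limma adjusted p of 0.0509, and over 17 alternatives the adjusted p ran from 0.0048 to 0.251, passing the threshold in 6. Without control shRNA replicate 2 the log2 difference was 0.27 (adjusted p = 0.0320). A related copy, CLDN7P1, is annotated in RefSeq, and whether the probe also binds its transcript was not examined.

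CLDN3 and CLDN4, neighbouring genes on chromosome 7 whose proteins are receptors for a bacterial enterotoxin, did not pass the test. CLDN3 read 159, 148 and 189 in control samples and 170, 176 and 178 with HERVH shRNA, a log2 difference of 0.12 (95% interval -0.07 to 0.30, limma adjusted p = 0.435). The HERVH shRNA values lay inside the control range. CLDN4 was near background, at 77.5, 79.3 and 88.1 against 97.3, 82.6 and 74.5, with a log2 difference of 0.02 (95% interval -0.18 to 0.22).

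OCLN on chromosome 5 encodes occludin, a tight junction protein that helps to regulate the barrier. Its 4 probes lay under the background stand-in in every sample, between 40.7 and 82.8, and none passed the test, with log2 differences from -0.13 to 0.05. These probes therefore give no level of OCLN to compare. An annotated copy, OCLNP1, exists, and whether the probes bind its transcript was not examined.

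Of the splicing regulators, only ESRP1 gave signal above the background stand-in. ESRP1, on chromosome 8, read 186, 194 and 201 in control samples and 142, 142 and 132 with HERVH shRNA. No sample of a group reached the other group. The log2 difference was -0.45 (SE 0.08, limma adjusted p = 9.6e-05), a level 1.37-fold higher in control cells. ESRP2, on chromosome 16, lay between 44.1 and 54.1 in all 6 samples, under the background stand-in, so no difference could be read from it.

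**Figure D2:**
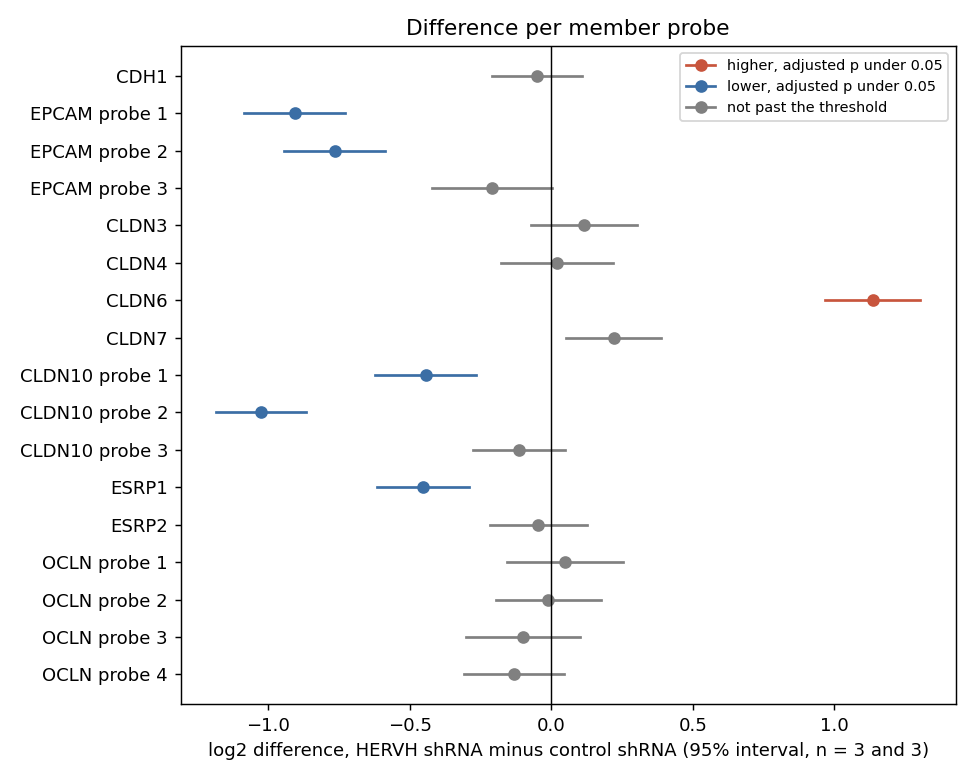
Log2 difference of HERVH shRNA minus control shRNA for each member probe, with its 95% interval from the limma fit (n = 3 and 3 samples). CLDN6 lies to the right at 1.14, the called EPCAM, CLDN10 and ESRP1 probes lie to the left between -1.03 and -0.44, and the CDH1 interval crosses 0.

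The signals of the pluripotent stem cell markers bear on the cell type label. All 14 genes of that list had signal above the background stand-in in all 6 samples. With HERVH shRNA 8 were lower and 3 higher, with a median log2 difference of -0.37 against 0.01 over all gene names. Among the 14260 gene names with a mean above the stand-in, 3724 were lower and 4231 higher. POU5F1, a core pluripotency factor, read 3202, 2722 and 2853 by its brighter probe in the control samples and 1422, 1353 and 1393 with HERVH shRNA (log2 difference -1.02, limma adjusted p = 5.1e-09). Its other probe was near background, at 74.9 to 92.4, and did not pass. SOX2, its partner factor, fell by both probes, with log2 differences of -2.12 and -0.44. NANOG differed by a log2 value of -0.40 (limma adjusted p = 2.4e-04) by 1 probe and by -0.14 (adjusted p = 0.232) by the other, and the RNA-binding protein LIN28 fell with a log2 difference of -0.96. GDF3, a growth factor of pluripotent cells, showed a log2 difference of -0.79. LEFTY1 and LEFTY2, secreted NODAL antagonists, rose by 1.28 and 1.24 log2 units, and the sialomucin PODXL by 0.64 log2 units. EPCAM fell in the same samples in which POU5F1, SOX2 and LIN28 were lower, and a link between them was not tested.

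Many mesenchymal genes moved the other way. Of 24 genes in the list of mesenchymal genes and regulators of the transition, 13 were higher and 1 lower (54.2% and 4.17%). The other 10 did not pass the test. Over all gene names, 14.8% were higher and 13.2% lower. Of the 16 list genes with a mean above the stand-in, 12 were higher and 1 lower. Among the 14260 gene names above it, 4231 were higher and 3724 lower. The summed intensity of the 24 genes was 21638 to 21846 in the control samples and 50843 to 54270 with HERVH shRNA. CDH2 read 2041, 2380 and 2281 against 8408, 8543 and 8849, a log2 difference of 2.03 (SE 0.08, limma adjusted p = 4.4e-14). N-cadherin signal thus rose in samples in which the E-cadherin probe did not pass the test. VIM rose by 1.42 and 2.14 log2 units by its 2 probes. TWIST1, a transcription factor of the transition, rose by 2.95 log2 units, the smooth muscle actin gene ACTA2 by 2.54 and the collagen gene COL1A2 by 2.09. S100A4, a calcium-binding protein linked to fibroblasts, was the 1 gene of the list called lower, with a log2 difference of -1.22.

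The repressors that bind the CAGGTG core had little signal. ZEB1, at 38.6 to 49.7, ZEB2, at 58.3 to 79.9, and SNAI1, at 43.8 to 55.6, lay under the background stand-in in all samples and did not pass. SNAI2 had 1 probe near background with a log2 difference of 0.07 (limma adjusted p = 0.637). Its other probe read 63.5, 57.8 and 58.7 in control samples, all under the stand-in, and 105, 103 and 103 with HERVH shRNA. That is at least 1.31-fold higher (limma adjusted p = 7.8e-08), a lower bound taken against the lowest signal above background. The 2 SNAI2 probes disagree, and which one reads the gene was not tested.

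**Figure D3:**
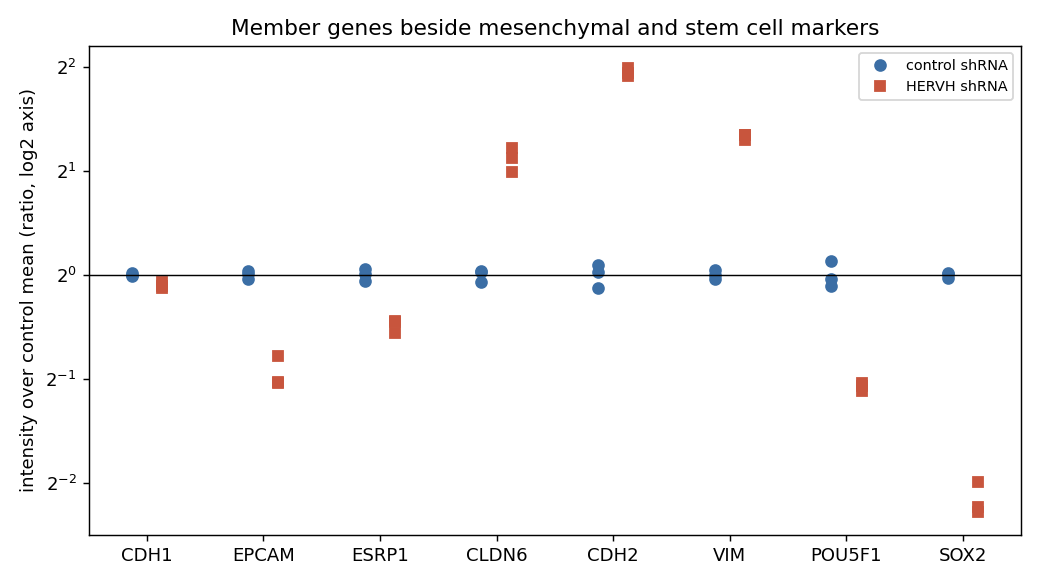
Intensity of each sample divided by the mean of the 3 control samples (log2 axis) for 4 members, 2 mesenchymal genes and 2 stem cell factors, each by the probe listed first for it. CDH1 stays close to 1, EPCAM and ESRP1 lie below 1 with POU5F1 and SOX2, and CLDN6 lies above 1 with CDH2 and VIM. EPCAM is shown by probe 1 (log2 difference -0.91) and SOX2 by its probe with -2.12. The brightest probes of these genes over the 6 samples, not shown, fell less, by log2 differences of -0.76 and -0.44.

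Other tight junction genes moved in both directions. Of 23 further claudins and tight junction partners, 7 were higher (30.4%), 5 lower (21.7%) and 11 did not pass. Their median log2 difference was -0.02. Over all gene names, 14.8% were higher and 13.2% lower. Of the 17 list genes with a mean above the stand-in, 7 were higher and 5 lower. On the whole array 14260 gene names had a mean above it, 4231 of them higher and 3724 lower. Whether these shares differ was not tested. CLDN11, the claudin of myelin and of Sertoli cell junctions, read 302, 370 and 374 in control samples and 2598, 2254 and 2426 with HERVH shRNA, a log2 difference of 2.86 (SE 0.09, limma adjusted p = 2.4e-15). CLDN1, a barrier-forming claudin, rose by 0.92 log2 units, and MARVELD2, which encodes tricellulin, found where several cells meet, by 0.85. CLDN14 read 861, 923 and 842 against 444, 467 and 436, a log2 difference of -0.94 (limma adjusted p = 5.8e-09). The scaffold gene CGNL1 (paracingulin) showed a log2 difference of -0.77, whereas TJP1 (ZO-1) did not pass, with a log2 difference of 0.03. Called claudins outside the member list therefore included both rises and falls, as among the members.

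Polarity genes, whose products place junctions between the apical and lateral membrane, showed 7 higher (50%), 0 lower and 7 not passed of 14. Their median log2 difference was 0.22. Over all gene names, 14.8% were higher and 13.2% lower. Of the 12 polarity genes with a mean above the stand-in, 7 were higher and 0 lower. Among the 14260 gene names above it, 4231 were higher and 3724 lower. INADL, which encodes the scaffold PATJ, rose by 0.85 log2 units, PARD6G by 0.68 and the atypical protein kinase C gene PRKCI by 0.66. At an unadjusted p under 0.05 in the same limma fit, 8 were higher and 0 lower.

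Among 19 adherens junction and desmosome genes, 8 were higher (42.1%), 1 lower (5.26%) and 10 did not pass. The shares over all gene names were 14.8% and 13.2%. Of the 16 with a mean above the stand-in, 8 were higher and 1 lower. Among the 14260 gene names above it, 4231 were higher and 3724 lower. The nectin gene PVRL3 read 715, 757 and 691 against 1667, 1819 and 1829, a log2 difference of 1.33 (limma adjusted p = 2.9e-11). VCL, which encodes the actin linker vinculin, rose by 1.00 log2 units and the desmosomal linker gene PPL by 0.89. CTNNB1, which encodes beta-catenin, the partner of E-cadherin, read 474, 496 and 485 against 291, 265 and 255 by its brightest probe, a log2 difference of -0.81 (limma adjusted p = 5.1e-08). CDH3 (P-cadherin) and CTNNA1 (alpha-catenin) did not pass, with log2 differences of 0.15 and 0.20.

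Other epithelial genes were also divided, with 10 higher (35.7%), 8 lower (28.6%) and 10 not passed of 28. The shares over all gene names were 14.8% and 13.2%. Of the 22 with a mean above the stand-in, 8 were higher and 8 lower. Among the 14260 gene names above it, 4231 were higher and 3724 lower. The protease inhibitor gene SPINT2 rose by 0.68 log2 units and the keratin gene KRT8 by 0.61. OVOL2, a transcription factor that maintains epithelial identity, read 607, 644 and 617 against 175, 199 and 180, a log2 difference of -1.72 (SE 0.08, limma adjusted p = 7.5e-13). KRT18 was at least 1.98-fold lower, since its HERVH shRNA samples lay under the background stand-in. The tetraspanin gene CD9 showed a log2 difference of -0.73, as did GRHL2, an activator of epithelial junction genes, which fell from 178, 169 and 167 to 99.4, 108 and 98.8.

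**Figure D4:**
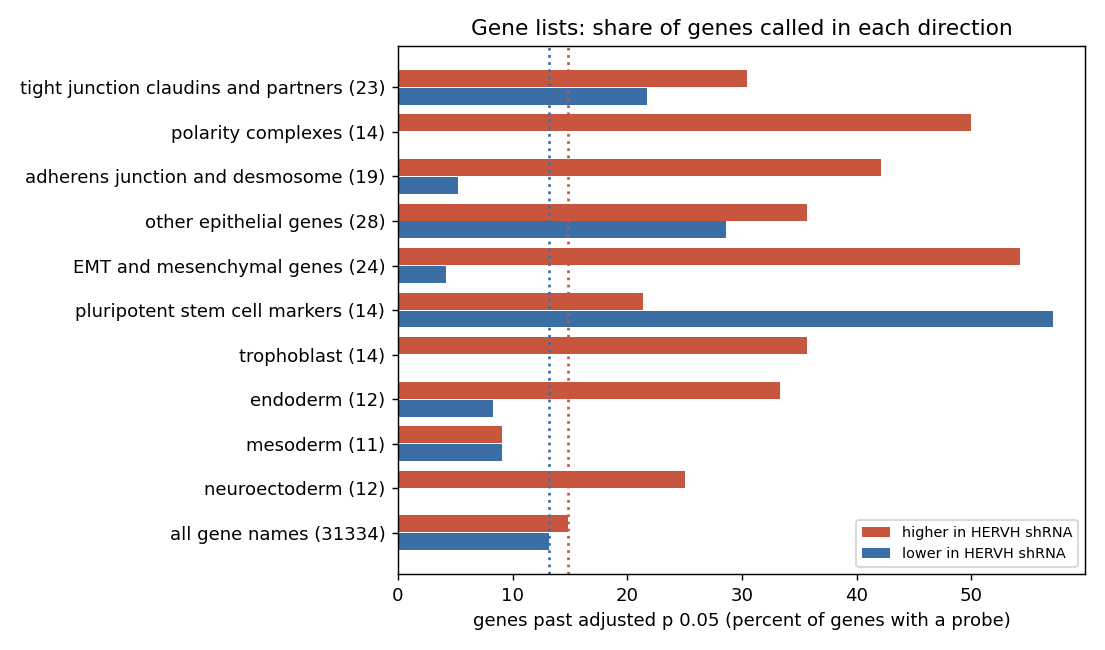
Percent of the genes of each list called higher or lower with HERVH shRNA (adjusted p below 0.05; number of genes with a probe in brackets, 1 probe per gene), with dotted lines at the 14.8% and 13.2% of all gene names. Polarity and adherens junction genes lie on the higher side, tight junction and other epithelial genes on both sides, and stem cell markers on the lower side. The lines are not matched for brightness. Of 14260 gene names with a mean above the stand-in, 4231 were higher and 3724 lower.

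Some markers of other lineages also differed between the groups. The part of these and of the mesenchymal genes in the members' differences was not tested. Over all gene names, 14.8% were called higher and 13.2% lower. Called higher were 35.7% of trophoblast, 33.3% of endoderm, 9.09% of mesoderm and 25% of neuroectoderm genes. Called lower were 0%, 8.33%, 9.09% and 0% of these lists. Of 14 trophoblast genes, 5 were higher and 0 lower in the limma fit, and at an unadjusted p under 0.05 there were 7 higher and 2 lower. In this list 9 genes lay under the stand-in in all samples, and summed intensities were 1186 to 1218 in control samples and 2107 to 2186 with HERVH shRNA. Much of that rise was TFAP2C, since the sums without it were 842 to 858 against 1202 to 1231. HAND1, TFAP2A and TFAP2C, transcription factors of trophoblast and of other embryonic tissues, rose by at least 2.78-fold, at least 2.61-fold and a log2 difference of 1.44, while the hormone genes CGA, CGB5 and CGB8 stayed under the stand-in. Of 12 endoderm genes, 4 were higher and 1 lower, with summed intensities of 863 to 914 against 1828 to 1887. Most of that rise was AFP alone, since the sums without it were 693 to 743 against 810 to 885. AFP, which encodes alpha-fetoprotein, rose by 2.62 log2 units, CER1 by 0.51 and CXCR4 by at least 1.31-fold, whereas SOX17, GATA4 and GATA6 were under the stand-in in all 6 samples and FOXA2 was at least 1.05-fold lower. GATA2 and FOXA1, counted among the higher trophoblast and endoderm genes, lay under the stand-in in all 6 samples. Of 11 mesoderm genes, 1 was higher (PDGFRA, at least 1.15-fold) and 1 lower (EOMES, a log2 difference of -0.23), with summed intensities of 889 to 952 against 908 to 957. Of 12 neuroectoderm genes, 3 were higher, namely TUBB3 by 1.51 log2 units, NES by 1.39 and OTX2 by 0.56, with 0 lower at an adjusted or an unadjusted p under 0.05. Summed intensities were 3104 to 3232 against 6981 to 7679, and PAX6 and SOX1 were under the stand-in in all 6 samples. Without TUBB3 the sums were 1812 to 1911 against 3647 to 3946. NES made up most of what remained, with means of 1214 in control samples and 3080 with HERVH shRNA.

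The genes whose log2 values followed the CDH1 probe most closely over the 6 samples were ARCN1, ZSCAN18, BRAF, IKBIP and MARVELD3, with Pearson r between 0.978 and 0.988. These are the highest values in a search over a large number of probes, with only 6 samples in 2 groups, and are given as a description.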

How the data were processed

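RNA of 6 samples of H1 cells, 3 per group, was amplified from 500 ng and hybridised to Illumina arrays, per the labels' protocols. The table of processed values deposited by the authors gives a linear intensity per probe and sample. The submitters' processing notes name GenomeStudio. Its version, the background step and the normalization method are not given in the labels or headers. Deposited values ran from 28.9 to 27159, with sample medians of 71.2 to 73.8, and none was near 0. Olfactory receptor probes had a median of 57.3 to 60.7, an additive background that makes log2 differences of dim probes smaller. A second table deposited by the authors paired all 47230 probe identifiers with gene names, an annotation and not a measurement. It also held 12 columns of signals and detection p-values under running numbers that no label uses. These were not used, so detection flags are replaced by the stand-in from olfactory receptor probes, and the value scale was not set against them. As a check of the naming, the differences of the 2 probes of 1672 genes correlated at r = 0.63 across genes.

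Values were quantile normalized because the samples' distributions differed, floored at 16 (no value lay below), log2 transformed and fitted with limma 3.58.1 in R 4.3.3 (lmFit, eBayes), with Benjamini-Hochberg adjustment over all probes. The fit was tested on simulated data in which few probes changed, equally up and down. That test does not cover a difference as broad as the one here. No samples were identical. Deviations of samples with the same replicate number correlated at 0.05, 0.00 and 0.03, so the numbers were not treated as pairs. Array number limits the precision, and 3 per group is small. A gene in a list was read from its brightest probe. A probe under the stand-in in all samples of 1 group, and above it in all of the other, has only a bound, given as "at least".

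The members and gene lists were chosen with earlier results of these data known. The text names every member, the fixed markers, up to 3 genes with the largest rise and fall per list, and the 5 genes most like CDH1, apart from genes that are not reported here. TJP1, CDH3, CTNNA1, GRHL2 and the lineage markers under the stand-in were named after their values were seen. Older names and positions come from the RefSeq gene table, and start site regions from RefSeq, both GRCh38.p14.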

Additional observations from a re-analysis of the deposited data

How the results depend on the processing

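The calls for CLDN6, for EPCAM probes 1 and 2 and for CLDN10 probe 2 held in all 17 alternatives, and no called member probe changed direction. Requiring a fold of at least 1.5 as well left 1859 probes higher and 2008 lower, and 3 member probes lower, since CLDN10 probe 1 and ESRP1 differed by less. That fold also left 3 tight junction genes lower, 4 polarity genes higher, 4 adherens junction and desmosome genes higher, 3 other epithelial genes higher and 4 lower, 4 stem cell markers lower, 3 trophoblast genes higher, 2 endoderm genes higher and 0 lower, and 0 mesoderm genes higher and 0 lower. With CLDN7 passing, 2 member probes were higher with an offset of 50 in place of the floor, with probes above the stand-in or above the median only, with trend and robust eBayes, and with normexp background correction, the last chosen after seeing the data. EPCAM probe 3 passed with median centring (adjusted p = 0.0420). Adherens junction and desmosome genes called lower numbered 2 with median centring, the offset, either filter or trend and robust eBayes, and 4 with the mean of all probes of a gene. Endoderm genes called higher fell to 2 with probes above the stand-in, and those called lower to 0 with either filter or with the mean of probes. The cause of these changes was not tested. Leaving out 1 sample at a time gave 1 to 2 member probes higher and 5 to 6 lower. In each such run 4 trophoblast genes were higher, against 5 with all samples, and 0 to 1 were lower. Mesoderm genes numbered 0 to 2 higher and 0 to 1 lower. Without further normalization, also chosen after seeing the data, the median of all probes shifted by 0.05 and member calls held. The replicate block gave 5685 probes higher and 5912 lower, with the same 6 member probes called. No replicate number was shown to pair samples. Floors of 8 and 32 could change nothing, because the lowest normalized intensity was 34.4. These settings count among the 17 alternatives but repeat the main fit. Probes under the stand-in, among them OCLN and ESRP2, set no limit on the genes' true change.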
